A study of Mus musculus with 6 samples.

Results

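The genes described here copy DNA during S phase and repair it after damage. They were chosen by symbol from the array's annotation: the Mcm, Orc, Gins and Rfc families, genes named Rad, Msh, Fanc, Xrcc or Ercc with a number or letter, and 21 further genes such as Pcna, Cdc6, Atm and Brca1. This gave 89 of the 19057 genes on the array, with 194 probes, and each gene was represented by its brightest probe. RNA came from immortalized proximal tubular cells of mice whose background the labels spell C56BL/6. All 6 samples had been infected with a lentivirus carrying a short hairpin RNA, aimed at GFP in the 3 Control samples and at Glis2 in the 3 Glis2KD samples, and cells were collected 7 days after infection. Glis2 encodes a zinc finger transcription factor whose loss is known to cause nephronophthisis. The control cells therefore also carried a hairpin and had also been infected. Whether the triplicates are separate infections is not stated in the labels, so p-values reflect only how far these 3 arrays differ, and that spread could be technical.

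Replication starts in G1, when the origin recognition complex marks an origin and Cdc6 and Cdt1 load the ring-shaped Mcm helicase onto it. In S phase Cdc45 and the GINS complex turn the loaded ring into a working helicase, polymerases held by the sliding clamp Pcna copy both strands, and Fen1 and Lig1 join the short fragments of the lagging strand. Many of these genes are transcribed under E2F factors, which the retinoblastoma protein restrains. Lesions are signalled by the kinases Atm and Atr and removed by separate routes: homologous recombination and end joining for double-strand breaks, mismatch repair for copying errors, nucleotide excision repair for bulky adducts and the Fanconi anaemia pathway for cross-links between strands. Renal tubular cells divide rarely in the intact kidney, whereas an immortalized line divides in culture.

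The deposited intensities include background. A limit of 137 was taken as the top of the background, and 40.9% of the probes lay above it on each array. Arrays correlated at r = 0.995 within groups and at r = 0.980 to 0.982 across groups over all probes, which are not independent replicates. Glis2 read 278, 234 and 230 in Control and 169, 161 and 176 in Glis2KD, a log2 fold change of -0.55 ± 0.092 (SE, limma's adjusted p = 6.36e-05). Of 19 proximal tubule markers 3 lay above background, Aqp1, Mme and Slc4a4, and 12, among them the endocytic receptor Lrp2 and the phosphate transporter Slc34a1, were under the limit on all 6 arrays. The summed intensity of all 19 was 12914 to 14642 in Control and 3473 to 3626 in Glis2KD. Of the 19, 2 were lower at limma's adjusted p under 0.05 and 17 did not pass. Both lower markers were among the 3 above background, whose median log2 fold change was -2.85. Markers under the limit could hardly show a fall, so whether they shared it cannot be told. The lowest log2 fold change among the 19 was -4.77, and their median of 0.023 rests mostly on markers under the limit. Endothelial markers were above background in 0 of 6 cases and leukocyte markers in 2 of 5, with summed intensities of 1160 to 1347 in Control and 1074 to 1226 in Glis2KD. Fibroblast markers were above background in 1 of 7 cases, at 950 to 988 and 842 to 901, podocyte markers in 2 of 3, at 1207 to 1321 and 1577 to 1642, and markers of other kidney epithelium in 3 of 11, at 2440 to 2588 and 2306 to 2524. The part of these differences in the results below was not tested. In RNA from whole cultures, fewer cells of a type and less RNA per cell cannot be told apart.

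Replication and repair genes moved in both directions and by modest amounts. Of the 89 genes, 21 fell and 11 rose in Glis2KD and 57 did not pass the test, which was limma's moderated test with Benjamini-Hochberg adjustment over all genes at a threshold of 0.05; a gene that passed is called. Over the whole array limma called 22.5% of genes, 11.1% higher and 11.4% lower. Of the 89 genes, 75 had a mean above the background limit, and the 32 called were all among them, a share of 42.7% that is near the 43.1% called among all genes above background. By direction, 14.7% of the 75 were higher and 28.0% lower, beside 21.2% and 21.9% of all genes above background. The groups of 3 arrays did not overlap in 36 of the 89 genes, or in 48.0% of the 75, beside 32.2% of all genes and 52.2% of those above background. The median log2 fold change was -0.015 over the 89 genes and 0.0039 over all genes tested. The 32 called genes lay between -0.89 for Rad51c and 0.58 for Fen1, and 0 of them changed by 1 or more, as 418 of the 4290 called genes of the array did. The number of members that fell was 13 without Control replicate 2 and 13 without Glis2KD replicate 3, and it was 13 where the mean of a gene's probes was used. With the most frequent intensity subtracted as background, 7 members fell and 3 rose.

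**Figure D1:**
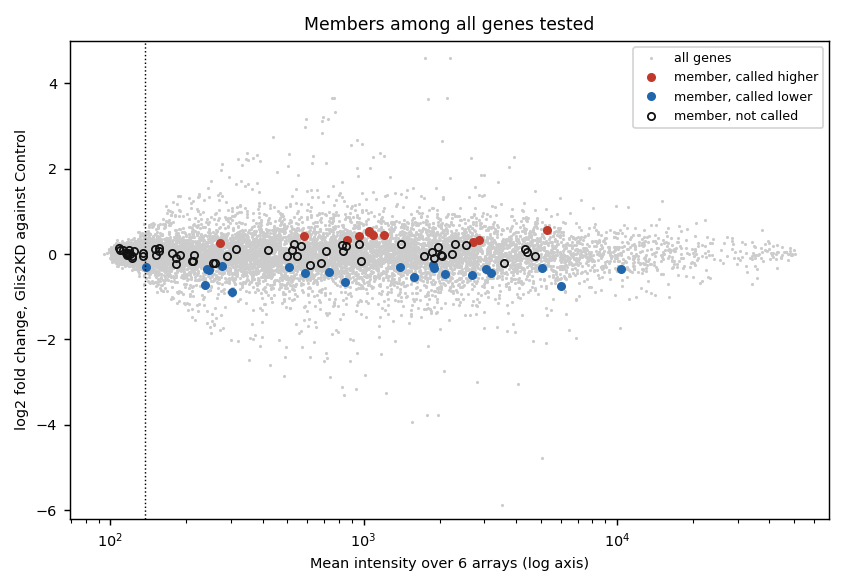
Each point is a gene, with its mean intensity over 6 arrays on a log axis and its log2 fold change, Glis2KD against Control. Grey points are all genes, filled points are members called higher (11, red) or lower (21, blue), open points are members not called, and the dotted line marks the background limit of 137. The members lie between -0.89 and 0.58, inside a cloud that reaches from -5.88 to 4.60.

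The 14 members whose mean lay under the limit are not described by direction. Of these Pola1, Atr, Nbn, Mcm8, Mcm9, Xrcc5, Msh4, Msh5, Fancb and Mcm3ap were under it on all 6 arrays. Rad51b, Xrcc4, Fancg and Ercc6 exceeded it on some arrays but not in the mean. For Atr and Nbn, as for Xrcc5, this says only that the probes chosen for them were not above background.

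**Figure D2:**
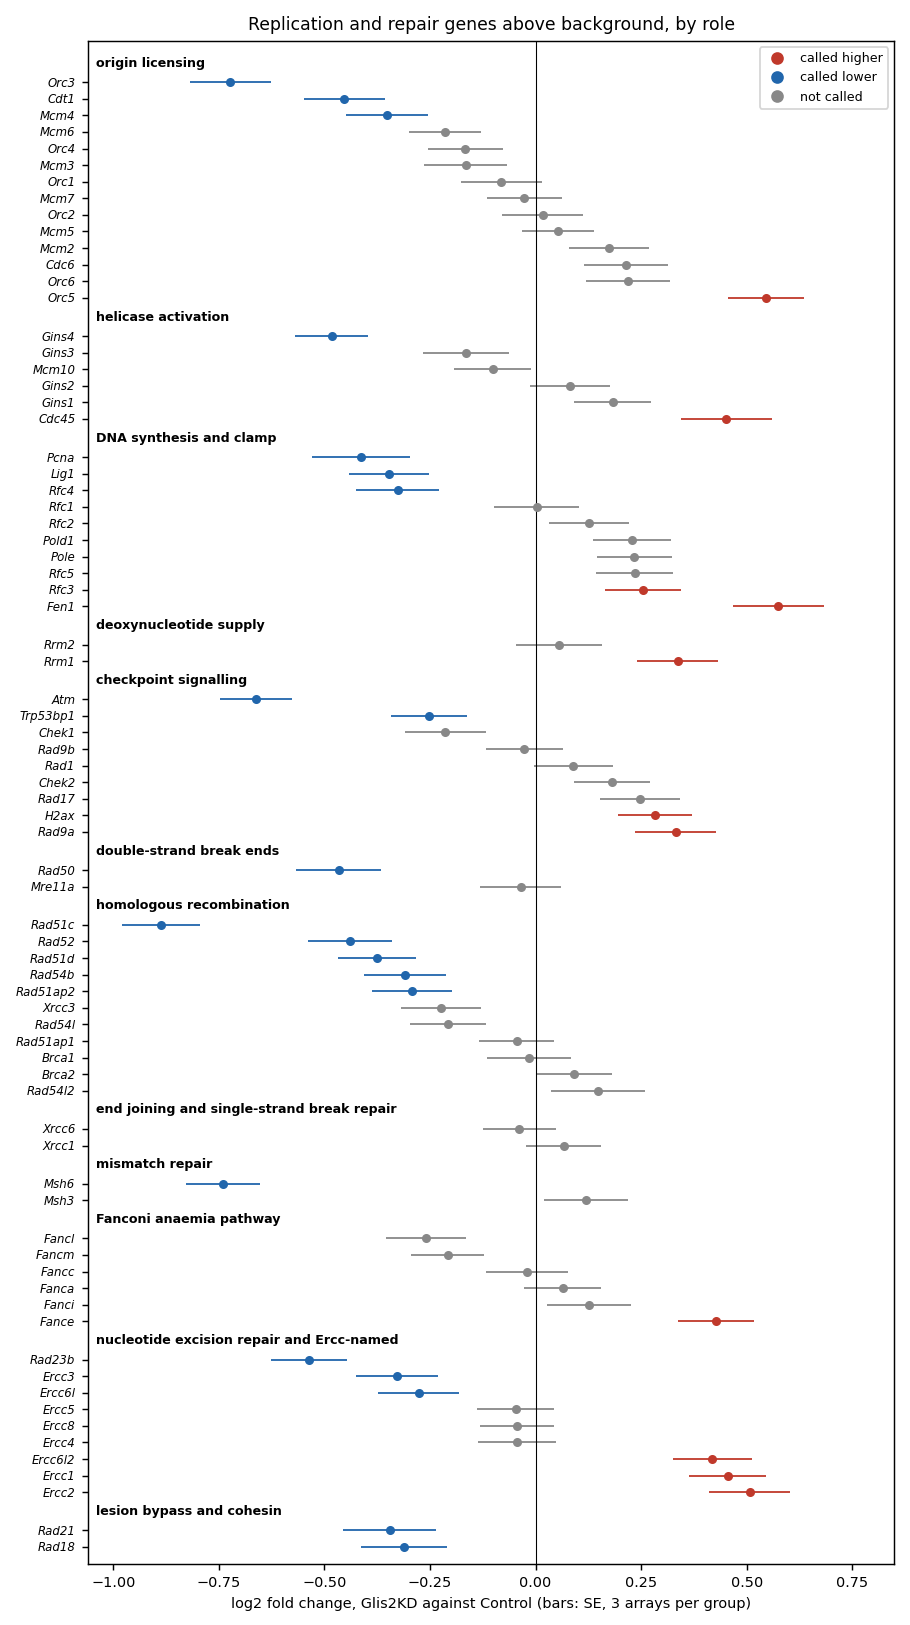
Points are the log2 fold changes, Glis2KD against Control, of the 75 members above background, ordered within roles, and bars are SE from limma with 3 arrays per group. Red genes were called higher, blue genes lower and grey genes were not called; each role with more than 2 called genes other than homologous recombination holds calls on both sides of 0.

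Because many replication genes are E2F targets, the promoters of the 2 lowest and the 2 highest called members with an entry in RefSeq's promoter set were searched. The sequences below are from RefSeq for build GRCm38.p6 and run from 250 bases before the annotated start to 30 after it. They are those of Rad51c (chr11:87404477-87404756, minus strand), Msh6 (chr17:87974800-87975079, plus strand), Orc5 (chr5:22550309-22550588, minus strand) and Fen1 (chr19:10204364-10204643, minus strand). Capitals mark E2F-type letters, which were TTTCCCGC or TTTGGCGC or TTTCGCGC or TTTGCCGC on either strand, and the letters CCAAT on either strand.
Rad51c: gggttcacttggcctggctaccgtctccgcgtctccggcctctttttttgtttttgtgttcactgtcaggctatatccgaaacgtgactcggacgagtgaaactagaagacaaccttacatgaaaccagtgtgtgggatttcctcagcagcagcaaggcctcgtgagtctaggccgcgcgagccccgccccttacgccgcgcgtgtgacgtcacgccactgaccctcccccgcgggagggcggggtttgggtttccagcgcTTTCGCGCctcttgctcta
Msh6: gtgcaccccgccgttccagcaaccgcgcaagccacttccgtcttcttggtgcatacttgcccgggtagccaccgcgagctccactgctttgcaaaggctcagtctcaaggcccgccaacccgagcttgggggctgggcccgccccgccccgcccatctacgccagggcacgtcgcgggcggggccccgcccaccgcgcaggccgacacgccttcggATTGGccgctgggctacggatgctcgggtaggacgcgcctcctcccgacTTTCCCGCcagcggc
Orc5: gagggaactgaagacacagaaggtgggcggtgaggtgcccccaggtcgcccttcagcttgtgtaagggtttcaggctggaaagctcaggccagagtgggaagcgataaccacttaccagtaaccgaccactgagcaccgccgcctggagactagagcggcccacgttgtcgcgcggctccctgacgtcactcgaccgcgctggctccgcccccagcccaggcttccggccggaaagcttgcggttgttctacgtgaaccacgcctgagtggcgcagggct
Fen1: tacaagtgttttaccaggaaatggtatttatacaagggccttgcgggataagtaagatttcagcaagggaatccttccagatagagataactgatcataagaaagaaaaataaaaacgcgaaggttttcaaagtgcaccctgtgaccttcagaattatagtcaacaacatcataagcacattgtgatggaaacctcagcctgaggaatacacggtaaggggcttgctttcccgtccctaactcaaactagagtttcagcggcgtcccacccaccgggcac
Rad51c and Msh6, which fell, each hold 1 E2F-type match in this window, and Msh6 also 1 CCAAT match, whereas Orc5 and Fen1, which rose, hold none of these letters. Both Rad51c and Fen1 have a second entry, with 1 and 0 E2F-type matches. Of the 89 members 73 had a promoter entry of 300 bases, and 22 of these (30.1%) held an E2F-type match in at least 1 entry, compared with 2.61% of all 27025 genes with an entry and 4.82% of those above background. The share was 48.1% of 27 members with replication roles and 20.0% of 45 with repair and checkpoint roles. By call, 5 of 13 lower members, 1 of 9 higher members and 16 of 51 members not called held a match. The CCAAT letters, bound by NF-Y, stood in 60.3% of the 73, in 41.1% of all genes and in 43.1% of those above background. They stood in 4 of 13 lower members, 5 of 9 higher members and 35 of 51 members not called. A match is a stretch of letters and not a measured site.

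In the origin licensing group 3 of 14 genes fell, 1 rose and 10 were not called. All 14 were above background, and 28.6% were called, beside 43.1% of all genes above background. Orc3, a subunit of the origin recognition complex, read 329, 293 and 266 in Control and 171, 197 and 169 in Glis2KD. All 3 Glis2KD arrays lay below all Control arrays, with a log2 fold change of -0.72 ± 0.096 (SE, limma's adjusted p = 2.69e-06). Orc5, another subunit of the same complex, read 928, 769 and 867 in Control and 1274, 1261 and 1201 in Glis2KD. Here the Glis2KD arrays were all the higher ones, with a log2 fold change of 0.55 ± 0.090 (limma's adjusted p = 5.13e-05). The 95% intervals of these changes ran from -0.92 to -0.52 for Orc3 and from 0.36 to 0.73 for Orc5, while the other 4 subunits, Orc1, Orc2, Orc4 and Orc6, had log2 fold changes from -0.17 to 0.22 and were not called.

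Cdt1, the licensing factor that is degraded once S phase begins, read 4096, 3397 and 3588 in Control and 2409, 2858 and 2824 in Glis2KD. The groups did not overlap, and the log2 fold change was -0.45 ± 0.096 (limma's adjusted p = 0.000814). Cdc6, its partner in loading the helicase, had 647, 835 and 804 in Control and 870, 943 and 826 in Glis2KD. Those values overlapped and Cdc6 was not called, at 0.21 ± 0.099. Of the 6 subunits of the replicative helicase, Mcm2 to Mcm7, Mcm4 fell and 5 were not called. Mcm4 went from 11597 ± 758 to 9122 ± 1108 (SD, n = 3), a log2 fold change of -0.35 with limma's adjusted p = 0.00854, and without Glis2KD replicate 3 it was no longer called (adjusted p = 0.0853). Mcm6 was lower on every Glis2KD array, at 3285, 3276 and 3412 against 4049, 3875 and 3657, but at -0.21 it missed the threshold (limma's adjusted p = 0.0796). Mcm5, which was not called, had a 95% interval from -0.12 to 0.23, and Mcm2, Mcm3 and Mcm7 had log2 fold changes of 0.17, -0.17 and -0.03.

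The genes that activate the helicase gave 1 fall, 1 rise and 4 that were not called. All 6 were above background, and 33.3% were called, beside 43.1% of all genes above background. Gins4, a subunit of the 4-membered GINS complex, read 2989, 3099 and 3288 in Control and 2142, 2265 and 2300 in Glis2KD. The arrays separated by group, at a log2 fold change of -0.48 ± 0.086 (limma's adjusted p = 0.000123). Its partners Gins1, Gins2 and Gins3 had log2 fold changes of 0.18, 0.08 and -0.16 and were not called. Cdc45, which binds GINS and the Mcm ring to form the working helicase, read 1020, 752 and 1007 in Control and 1166, 1230 and 1380 in Glis2KD. All Glis2KD arrays were above all Control arrays (log2 fold change 0.45 ± 0.107, limma's adjusted p = 0.00248). Mcm10, a further initiation factor, had a 95% interval from -0.29 to 0.09.

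Among polymerases, clamp and clamp loader, 3 of 11 genes fell and 2 rose. Of the 10 above background 50% were called, beside 43.1% of all genes above background. Fen1, the flap endonuclease that trims Okazaki fragments, read 3429, 4869 and 4576 in Control and 6562, 6336 and 6081 in Glis2KD. Every Glis2KD array was above the Control arrays, and the log2 fold change was 0.58 ± 0.107 (SE, limma's adjusted p = 0.000205). Lig1, the ligase that seals the same fragments, instead read 3599, 3670 and 2984 in Control and 2470, 2769 and 2798 in Glis2KD, a log2 fold change of -0.35 ± 0.095 (limma's adjusted p = 0.00846). Pcna, the sliding clamp to which both bind, read 804, 984 and 710 in Control and 675, 684 and 515 in Glis2KD. The groups did not overlap, although the lowest Control array lay close to the highest Glis2KD array, and the log2 fold change was -0.41 ± 0.116 (limma's adjusted p = 0.0100).

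The clamp loader is a ring of Rfc1 to Rfc5. Rfc4 went from 2111 ± 306 to 1673 ± 61.1 (SD, n = 3) and fell by 0.33 on the log2 scale (limma's adjusted p = 0.0154), while Rfc3 went from 248 ± 7.38 to 297 ± 30.2 and rose by 0.25 (0.0462). Rfc1, Rfc2 and Rfc5 had log2 fold changes of 0.0024, 0.13 and 0.23 and were not called, the 95% interval for Rfc2 running from -0.07 to 0.32. The catalytic subunits of the leading and lagging strand polymerases, Pole and Pold1, were higher on every Glis2KD array but missed the threshold, with 0.23 each and adjusted p = 0.0617 and 0.0887 by limma. Of the called genes in this group, Lig1 lost its call without Control replicate 2 or Glis2KD replicate 1 (limma's adjusted p = 0.0557 and 0.0556), and Pcna without Control replicate 2 or Glis2KD replicate 3 (0.102 and 0.111). Rfc4 lost it without Control replicate 2, Glis2KD replicate 1 or Glis2KD replicate 3 (0.152, 0.0526 and 0.0515), and Rfc3 without any array other than Glis2KD replicate 3 (0.0532 to 0.274).

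Ribonucleotide reductase makes the deoxynucleotides for DNA synthesis. Its large subunit Rrm1 read 2317, 2673 and 2587 in Control and 3434, 3333 and 2816 in Glis2KD, so that all Glis2KD values were the higher ones, and it rose by 0.34 ± 0.095 (limma's adjusted p = 0.0104). The small subunit Rrm2, which limits the enzyme in cycling cells, read 1927, 2041 and 1550 against 1740, 2019 and 1947 and was not called (95% interval -0.15 to 0.27). The call of Rrm1 was lost without Control replicate 1, Glis2KD replicate 1 or Glis2KD replicate 2 (limma's adjusted p = 0.0742, 0.0638 and 0.0539).

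In checkpoint signalling 2 of 10 genes fell, 2 rose and 6 were not called. Of the 9 above background 44.4% were called, near the 43.1% of all genes above background. Atm, the kinase activated by double-strand breaks, read 1036, 1006 and 1063 in Control and 664, 670 and 628 in Glis2KD. The spread within each group was small beside the gap between them, and the log2 fold change was -0.66 ± 0.085 (limma's adjusted p = 1.60e-06). H2ax, the histone variant phosphorylated around breaks, read 2276, 2414 and 2620 in Control and 2906, 3049 and 2929 in Glis2KD and rose by 0.28 ± 0.087 (limma's adjusted p = 0.0191), and Trp53bp1, which is recruited to that chromatin, went from 2047 ± 52.0 to 1724 ± 165 and fell by 0.25 (0.0467).

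Rad9a, part of the ring-shaped clamp that is loaded at damage together with Rad1, read 750, 715 and 818 in Control and 1013, 829 and 1040 in Glis2KD and rose by 0.33 ± 0.097 (limma's adjusted p = 0.0134). Rad1 and the loader Rad17 had 0.09 and 0.25 and were not called. The effector kinases Chek1 and Chek2 were not called either, at -0.21 and 0.18, and the 95% interval of Chek2 ran to 0.37. Trp53bp1 lost its call without any array other than Glis2KD replicate 2 (limma's adjusted p = 0.0663 to 0.218), and its 2 further probes gave 0.07 and 0.05. H2ax lost it without Control replicate 1, Control replicate 2 or Glis2KD replicate 2 (0.107, 0.0538 and 0.0729), and Rad9a without Control replicate 2, Glis2KD replicate 1 or Glis2KD replicate 3 (0.0694, 0.0647 and 0.0878).

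**Figure D3:**
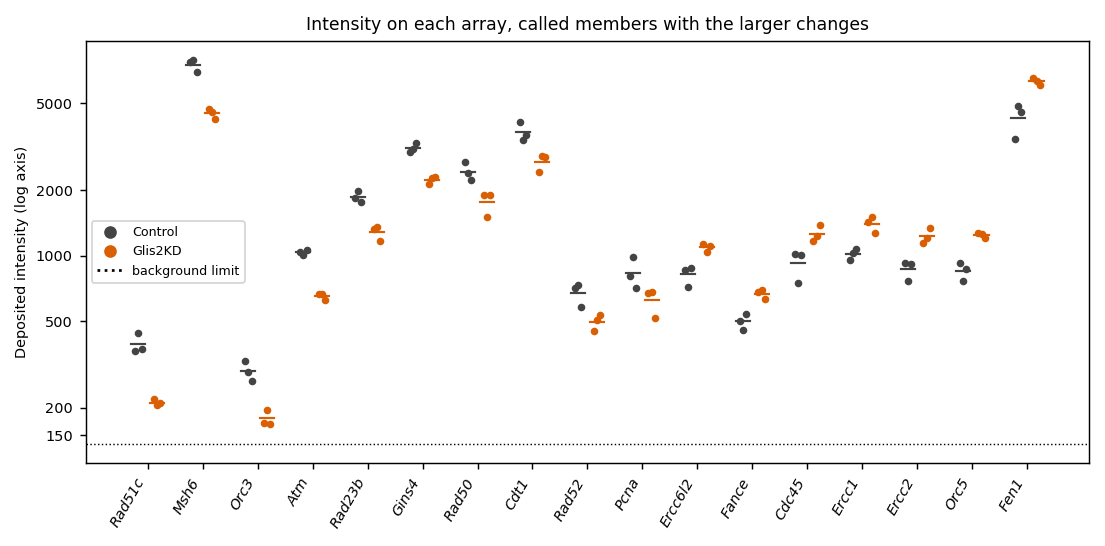
Points are the deposited intensities of single arrays on a log axis for the 17 called members with a log2 fold change of at least 0.4 in size, 3 Control arrays in grey and 3 Glis2KD arrays in orange, with group means as short lines and the background limit dotted. Rad51c, Msh6, Orc3 and Atm show the widest gaps downward, and Fen1 and Orc5 the widest upward.

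Rad50, which with Mre11a and Nbn forms the complex that binds broken ends, read 2679, 2389 and 2232 in Control and 1892, 1508 and 1899 in Glis2KD. The groups were separate, and it fell by 0.47 ± 0.101 (limma's adjusted p = 0.00101). Mre11a, the nuclease of the complex, read 1619, 1973 and 1673 against 1678, 1872 and 1580 and was not called, with a 95% interval from -0.23 to 0.16.

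Of 14 homologous recombination genes, limma called 5 lower and 0 higher, and 0 higher had an unadjusted p under 0.05. Of the 11 above background 45.5% were called, near the 43.1% of all genes above background. By direction, 45.5% of the 11 were lower and 0 higher, beside 21.9% and 21.2% of all genes above background. The 5 include Rad51ap2, whose mean in Glis2KD, 125, was under the limit. Rad51c, which acts in repair of double-strand breaks by recombination, had the lowest fold change of all 89 genes: 365, 442 and 371 in Control and 220, 205 and 210 in Glis2KD. The lowest Control array was well above the highest Glis2KD array, and the log2 fold change was -0.89 ± 0.092 (limma's adjusted p = 6.59e-08). Rad51d, which acts in the same route, read 301, 246 and 282 in Control and 202, 225 and 210 in Glis2KD and fell by 0.38 ± 0.093 (limma's adjusted p = 0.00350). Rad52, which anneals single strands, read 714, 734 and 581 in Control and 450, 507 and 533 in Glis2KD, again without overlap, and fell by 0.44 ± 0.099 (limma's adjusted p = 0.00155).

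Rad54b, a motor protein of recombination, and Rad51ap2 fell by 0.31 and 0.29 (limma's adjusted p = 0.0214 and 0.0267). The groups of Rad54b overlapped, and 2 of the 3 Glis2KD arrays of Rad51ap2 were under the background limit. The call of Rad54b was lost without Control replicate 1 or 2 or Glis2KD replicate 2 or 3 (limma's adjusted p = 0.0877, 0.110, 0.131 and 0.0741), and Rad51ap2 without Control replicate 1 or 2 or Glis2KD replicate 1 or Glis2KD replicate 3 (0.0569, 0.0920, 0.133 and 0.132). Rad54l was lower on each Glis2KD array but was not called, at -0.21 (0.118). Brca1 and Brca2, which act in the same repair route, had 95% intervals from -0.22 to 0.19 and from -0.10 to 0.28. Of the 4 Xrcc-named members of end joining and single-strand break repair limma called 0, and 0 had an unadjusted p under 0.05. Genes of these routes with other names are not in this count. Only 2 of the 4, Xrcc6 and Xrcc1, had a mean above the background limit, so the values of Xrcc4 and Xrcc5 do not show whether they changed. Xrcc6, the smaller Ku protein, read 4831, 4854 and 4736 in Control and 4729, 4930 and 4397 in Glis2KD (95% interval -0.22 to 0.14), and Xrcc1, the scaffold of single-strand break repair, had 0.07.

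Of the 4 Msh-named members of mismatch repair limma called 1 lower and 0 higher, and only 2 of the 4 had a mean above the background limit. Mismatch repair genes with other names are not in this count. Msh6, which recognises base mismatches, read 7747, 7913 and 6939 in Control and 4703, 4571 and 4245 in Glis2KD, so that the mean fell by 40.2%. The groups lay far apart relative to their spread, with a log2 fold change of -0.74 ± 0.089 (limma's adjusted p = 6.45e-07). Msh3, which recognises larger loops, read 146, 160 and 126 in Control and 140, 169 and 160 in Glis2KD. These values are close to the background limit, and Msh3 was not called (95% interval -0.09 to 0.33).

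Of the 8 Fanc-named members of the Fanconi anaemia pathway 1 rose and limma called 0 lower, with 2 lower at an unadjusted p under 0.05. Of the 6 above background 16.7% were called, beside 43.1% of all genes above background. Genes of the pathway with other names are not in this count, so it does not describe the whole pathway. Fance, a core complex subunit, read 499, 458 and 541 in Control and 678, 699 and 633 in Glis2KD. All Glis2KD arrays were higher, and it rose by 0.43 ± 0.090 (limma's adjusted p = 0.000808). Fancl, the ubiquitin ligase of the complex, was lower on all Glis2KD arrays at -0.26 but missed the threshold (limma's adjusted p = 0.0516), and it was called without Control replicate 3 (0.0126). Fancm, which binds stalled forks, had -0.21 (0.0949), and Fanca, Fancc and Fanci had 0.06, -0.02 and 0.13.

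Nucleotide excision repair and other Ercc-named genes split evenly, with 3 of 10 higher and 3 lower. Of the 9 above background 66.7% were called, beside 43.1% of all genes above background. Ercc1, which with Ercc4 makes the incision on one side of a lesion, read 953, 1032 and 1070 in Control and 1424, 1504 and 1266 in Glis2KD and rose by 0.45 ± 0.091 (limma's adjusted p = 0.000468). Ercc2, a helicase of the TFIIH complex, read 926, 764 and 915 in Control and 1145, 1208 and 1344 in Glis2KD and rose by 0.51 ± 0.096 (limma's adjusted p = 0.000247). In both genes each Glis2KD array exceeded each Control array. Ercc3, the other TFIIH helicase, read 6002, 5440 and 5443 in Control and 4101, 4222 and 5187 in Glis2KD. It fell by 0.33 ± 0.097 (limma's adjusted p = 0.0141), with Glis2KD replicate 3 close to the Control arrays.

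Rad23b, which stabilises the damage sensor Xpc, read 1845, 1983 and 1769 in Control and 1332, 1357 and 1172 in Glis2KD. The groups were well apart, and it fell by 0.54 ± 0.090 (limma's adjusted p = 6.14e-05). Ercc4, Ercc5 and Ercc8 were not called, with log2 fold changes from -0.05 to -0.04. Ercc6l2, a helicase-like protein, rose by 0.42 (limma's adjusted p = 0.00132), and Ercc6l, a mitotic DNA translocase on the X chromosome that shares the name only, fell by 0.28 (0.0401) with overlapping groups. The call of Ercc3 was lost without Control replicate 1, Glis2KD replicate 1 or Glis2KD replicate 2 (limma's adjusted p = 0.0793, 0.0883 and 0.0758), and that of Ercc6l without Control replicate 1, Control replicate 3, Glis2KD replicate 1 or Glis2KD replicate 3 (0.0969, 0.194, 0.115 and 0.190).

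Rad18, the ubiquitin ligase that opens lesion bypass, and Rad21, a cohesin subunit, fell by 0.31 and 0.35 with overlapping groups (limma's adjusted p = 0.0282 and 0.0242). Rad18 read 586, 574 and 525 in Control and 443, 391 and 534 in Glis2KD. Leaving out Control replicate 1 or 2 or Glis2KD replicate 1 or 2 ended the call of Rad18 (limma's adjusted p = 0.109, 0.0836, 0.0795 and 0.219), and that of Rad21 ended without Control replicate 2 or 3, Glis2KD replicate 2 or Glis2KD replicate 3 (0.119, 0.0705, 0.235 and 0.0507).

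Further probes bear on how far a gene's value rests on 1 probe. Of the 32 called genes, 13 had 1 probe and 19 had more, 16 of these with a further probe above background. Fitted over all probes, 8 further probes of 7 genes were called in the same direction as the gene and 0 in the other. Msh6 was lower on its second probe by 0.82, Rad51c by 0.70, Atm by 0.46 and 0.44 on 2 others, and Ercc3 by 0.30, while Orc5, Rrm1 and Ercc6l2 were higher by 0.47, 0.49 and 0.31 on a second. By contrast the second probe of Rad23b, which was also well above background, gave -0.15, and with the mean of its probes Rad23b was not called (limma's adjusted p = 0.0814). The mean of probes also ended the calls of Rad51d, Rad50, Rad9a, Trp53bp1, Mcm4, Rad54b, Ercc6l2, Rad18 and Rad21 (0.0619 to 0.752). That mean includes probes near or under the limit, such as those of Mcm4 (mean intensities 141 and 137), Rad54b (108) and Rad18 (127 and 116). A lost call there does not show that the brightest probe was wrong. Trp53bp1 and Ercc6l2 each had a further probe well above the limit, at 498 and 476. The part of dim probes in the lost calls was not tested. Rad21 has 1 probe, and its adjusted p moved from 0.0242 to 0.0634 with the other genes' values.

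**Figure D4:**
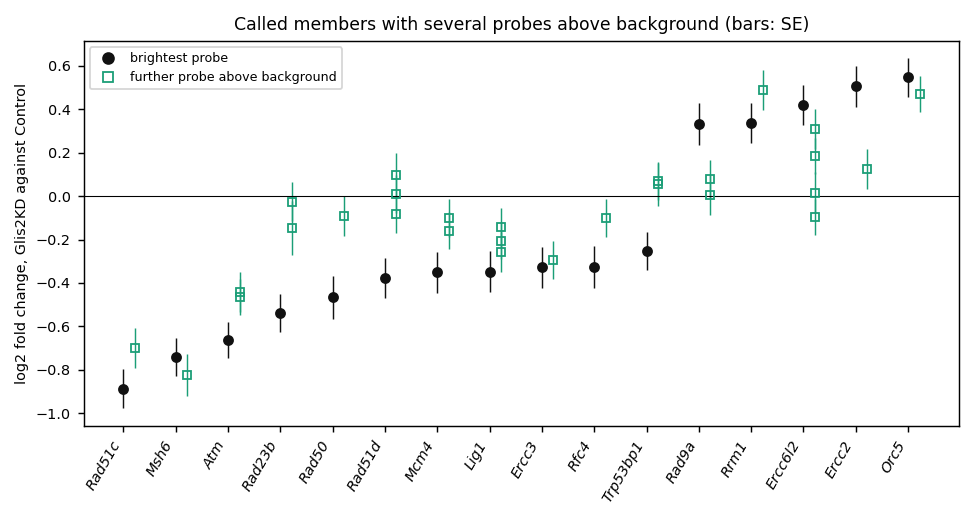
Log2 fold changes, Glis2KD against Control, of the 16 called members with at least 2 probes above background, with the brightest probe as a filled circle, further probes as open squares and SE as bars. Further probes of Rad51c, Msh6, Atm, Ercc3, Rrm1 and Orc5 lie near the brightest one, and those of Rad23b, Rad50, Rad51d and Rad9a lie near 0.

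Neighbouring genes were compared because a member may share its shift with its stretch of chromosome. For each member the median log2 fold change of up to 50 neighbours above background was taken, by gene order in RefSeq's GRCm38.p6 annotation. It ranged from -0.45 to 0.31 over the 89 members and was 0.2 or more in size for 10 of them, of which 3 were called. Those 3 were Ercc3 on chromosome 18 (neighbours -0.45), Rad9a on chromosome 19 (0.31) and Fen1 on chromosome 19 (0.23). Relative to its neighbours Ercc3 had 0.09 and Rad9a 0.06, and neither was called (limma's adjusted p = 0.492 and 0.697), whereas Fen1 had 0.34 and was still called. Ercc1 and Ercc2 lie on chromosome 7 with neighbours at 0.17 and 0.16, and their relative values were 0.24 (limma's adjusted p = 0.0531) and 0.30, the second still called. Relative values also ended the calls of Rrm1, Rfc3, Pcna, Rad54b, Trp53bp1, Rad51ap2, Ercc6l and Rad21 (0.0624 to 0.802). They added calls for 5 members (limma's adjusted p = 0.0284 to 0.0437). The licensing genes Mcm2, Cdc6 and Orc6 were called higher, at 0.28, 0.29 and 0.29, and Ercc5 lower, at -0.25. The fifth, Fancb, was under the background limit on all 6 arrays. For Rad51c, Msh6, Orc3, Atm and Orc5 the neighbours were between -0.15 and -0.01 and the relative values -0.73, -0.75, -0.65, -0.56 and 0.52.

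**Figure D5:**
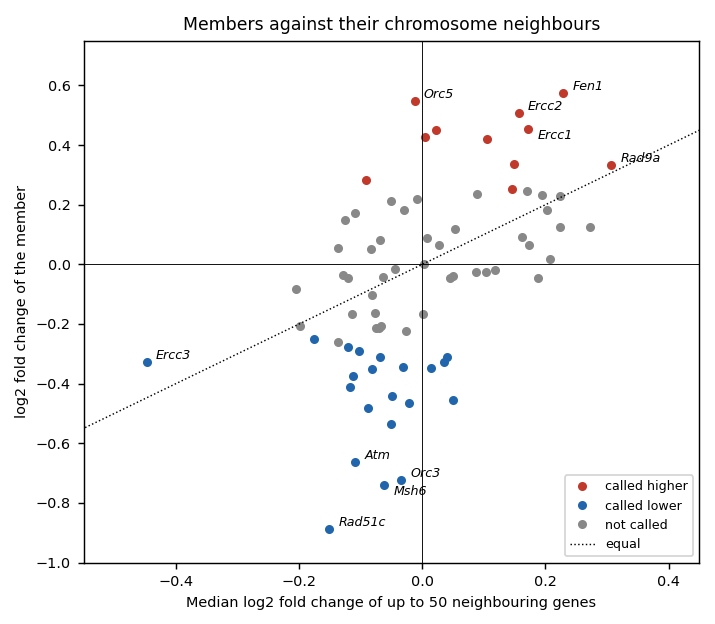
Each point is one of the 75 members above background, with the median log2 fold change of up to 50 neighbouring genes on the x axis and its own on the y axis, both Glis2KD against Control, and the dotted line marks equal values. Ercc3 and Rad9a lie near that line, while Rad51c, Msh6, Orc3 and Atm lie far below it and Orc5 and Fen1 above it.

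Other genes of the same pathways, listed by function, also moved both ways. Calls reached 34.4% of the 32 fork and origin genes above background, 38.5% of 13 nucleotide supply genes and 38.5% of 52 repair genes. Over all genes above background limma called 43.1%. Of 35 further replication fork and origin genes 7 rose and 4 fell, with the polymerase delta subunit Pold3 at 0.45, the kinase Cdc7 at 0.36, the chromatin assembly subunit Chaf1b at -0.41 and the fork protector Timeless at -0.33. Of 13 nucleotide supply genes 4 rose and 1 fell: thymidylate kinase Dtymk rose by 0.37, the purine synthesis enzyme Gart by 0.32 and thymidylate synthase Tyms by 0.31, and Rrm2b, the p53-inducible small reductase subunit, fell by 0.36. Of 57 further repair genes 9 rose and 11 fell. The thymine glycosylase Tdg went from 760 ± 60.5 to 1294 ± 99.9 (SD, n = 3), a rise of 0.77, while the bypass polymerases Poli and Polh fell by 0.69 and 0.61 and Ddb2, a damage sensor of nucleotide excision repair, by 0.67.

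Of 36 regulators of the cell cycle and of E2F, 9 rose and 9 fell, and 31 of the 36 were above background. Of the 31, 58.1% were called, 29.0% in each direction. The shares of all genes above background were 43.1% called, 21.2% higher and 21.9% lower. Rb1, the retinoblastoma protein, read 1656, 1612 and 1602 in Control and 803, 839 and 908 in Glis2KD, a log2 fold change of -0.93 ± 0.086 (limma's adjusted p = 9.96e-09). The repressor E2f6 and the inhibitor Cdkn2c fell by 0.57 each, and Myc rose by 0.53. Medians over these lists were 0.03 for fork and origin genes, 0.15 for nucleotide supply, -0.02 for repair and -0.0080 for regulators, beside 0.0039 over all genes.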

How the data were processed

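Total RNA of 3 Control and 3 Glis2KD samples was hybridised to an Illumina mouse bead array. The authors' deposited values are linear intensities that share one distribution across arrays (log2 medians within 0.00029), as between-array normalization leaves them; tool and method are not given in the sources. None lies near 0, the lowest intensity being 85.4, so background is included. Of 45281 probes, 34885 had 1 gene symbol, 18 several and 10378 none in the platform annotation, and 34807 were matched to RefSeq by Entrez identifier. Values were transformed to log2, and the probe with the highest mean stood for its gene. limma 3.58.1 in R 4.3.3 (lmFit, eBayes) was fitted to all 19057 genes, with Benjamini-Hochberg adjustment, and was tested on simulated data. There, with 50 genes changed at each size, it called 2% of log2 changes of 0.25, 50% of 0.5, 98% of 1 and 100% of 2. Far fewer genes changed in the simulation than were called in the data, so these shares may not carry over. A gene that was not called is not thereby shown to be unchanged. The background limit is the most frequent intensity, 113, plus 3 times an SD of 7.91 from the lower side of that peak, and was set after the data had been seen. Precision is limited by there being 6 arrays. By rule the named genes are the called members, the brightest member of each role that was not called and up to 4 called genes of each pathway list; other members that were not called are named as partners of these. Members, lists and alternatives were chosen with earlier results of these data known.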

Additional observations from a re-analysis of the deposited data

How the results depend on the processing

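The 17 alternatives were a replicate block, leaving out each array, quantile normalization, median centring, 2 background corrections, an added offset of 50, 2 filters on dim genes, the mean of probes, eBayes with trend and robust, and values relative to neighbours. Orc3, Orc5, Gins4, Atm, Rad51c, Msh6 and Fance kept their calls under all of those run, and 25 called members lost theirs under at least 1. Leaving out 1 array gave 13 to 19 lower members, and a median log2 fold change over the members from -0.036 to 0.011; 17 of the 32 kept their call in all 6 such fits. The mean of probes gave 13 lower members and a median of 0.015. With background subtracted, 2643 genes of the array were called, 3 members higher and 7 lower, and 23 of the 32 members lost their call; the cause was not tested. Normexp correction ended 8 calls. Relative to neighbours Ercc3 changed sign, to 0.095, without being called. Same-numbered arrays did not deviate together (correlations -0.092, -0.039 and -0.038). Whether the samples were paired by design is not stated in the labels, and these correlations cannot decide it. The replicate block gave 10 higher and 19 lower members. Quantile normalization and median centring changed no member's call. The deposited arrays already shared one distribution, so these 2 settings could hardly have changed one. Fold changes of dim members are understated, since intensities include background.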

Other observations

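5 members that were not called on their brightest probe had a dimmer probe that limma called in the fit over all probes. These were Chek1 (log2 fold change -0.24), Gins2 (-0.30) and Mcm6 (-0.28), lower, and Fancl (0.27) and Rfc2 (0.30), higher. The brightest probes of Gins2 and Fancl gave 0.08 and -0.26, the opposite sign. These genes were chosen for the disagreement after their values were seen.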
